A study of Oryctolagus cuniculus with 15 samples.

Results

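The genes described are those of the contractile and myofibroblast cytoskeleton, namely ACTA2, TAGLN, TPM1, TPM2, MYL9, CNN1, FLNC, VIM and ACTB. They were picked by symbol, with earlier results of these data known. Of the 9 genes, 8 have a row among the 23428 genes of the deposited tables, and CNN1 is not analysed here. Corneal keratocytes, the resident cells of the corneal stroma, were isolated from New Zealand white rabbits and cultured at first passage for 6 days in serum-free medium, with fresh medium on days 2 and 5. In 2DC the cells grew on collagen-coated dishes. In 2DC_L they grew on the same dishes but were lysed directly, without the incubation in digestion medium that cells of every other condition received before lysis. In 2DF the cells grew on top of fibrillar collagen matrices, and in 3DF they were embedded inside such matrices at 100000 cells per matrix. In 3DF_50 the matrices held 50000 cells. The matrices of 2DF, 3DF and 3DF_50 were lifted from the dish for digestion, and their cells were pelleted and rinsed before lysis. Cells of 2DC were digested, rinsed and lysed in the dish. Between matrix and dish conditions this handling and the culture cannot be told apart. On the dishes and in 2DF cells were plated at 50000 cells per mL, and the paper states that the effective cell density was lower in 3D. Each condition has 3 libraries from separate experiments, each pooled from several dishes or matrices, and the 15 libraries hold 14626982 to 31804255 counted reads. Serum was absent from all 5 conditions, so that none of them is a myofibroblast control.

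Contractile force in stromal cells comes from non-muscle myosin II pulling on actin filaments. When keratocytes are activated after injury or by TGFβ they can become myofibroblasts, which add alpha-smooth muscle actin to their stress fibers, and these cells can contract and scar the cornea. Tropomyosins, transgelin and myosin light chains decorate or drive the filaments, filamins crosslink them, and vimentin builds the intermediate filament network beside them.

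ACTA2 encodes alpha-smooth muscle actin, the defining marker of the myofibroblast, and lies at chr18:36853676-36870691 on the minus strand of oryCun2. Its level was low in every library. It was 0.873, 1.88 and 1.19 FPKM (fragments mapped to a gene divided by its length and by the library's total) in 2DC and 1.44, 3.9 and 0.82 FPKM in 2DC_L. It was 0.387, 0.512 and 0.173 FPKM in 2DF, 0.18, 0.0666 and 0.112 FPKM in 3DF, and 0.128, 0.163 and 0.268 FPKM in 3DF_50. The libraries from dishes lay above all others without overlap. Behind these levels stand 34, 55 and 35 reads in 2DC and 6, 2 and 3 reads in 3DF, so that the levels inside matrices rest on few counts. The highest condition mean, 2.05 ± 1.63 FPKM (SD, n = 3) in 2DC_L, was 17.1 times the lowest, 0.120 ± 0.0573 FPKM in 3DF, and the large SD of 2DC_L came with its replicate 2.

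TAGLN encodes transgelin, an actin-bundling protein of contractile cells (chr1:99217021-99221429, minus strand). It was 3.8, 5.23 and 4.65 FPKM in 2DC and 4.13, 6.06 and 2.04 FPKM in 2DC_L. It was 0.988, 2.99 and 2.83 FPKM in 2DF, with replicate 1 well below the other two libraries. All 6 libraries from cells inside matrices lay lower still, at 0.414, 0.306 and 0.642 FPKM in 3DF and 0.294, 0.0933 and 0.352 FPKM in 3DF_50. The mean fell from 4.56 ± 0.719 FPKM in 2DC to 0.454 ± 0.172 FPKM in 3DF (SD, n = 3 each).

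MYL9 encodes a regulatory light chain of non-muscle and smooth muscle myosin II (chr4:3443207-3448415, minus strand). It was 22.2, 39 and 43.1 FPKM in 2DC and 40.5, 49.1 and 33.6 FPKM in 2DC_L. On top of matrices it was 6.63, 8.14 and 7.27 FPKM, and inside them 2.75, 7.03 and 4 FPKM in 3DF and 3.17, 3.29 and 4.68 FPKM in 3DF_50. The lowest dish library was thus above 20 FPKM and the highest library with fibrillar collagen below 10 FPKM.

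The tropomyosin genes TPM1 and TPM2, whose products run along actin filaments and set which proteins bind them, had different patterns. TPM2 (chr1:18242478-18250240, plus strand) was 14.3, 19.6 and 19.5 FPKM in 2DC and 19, 19.6 and 16.2 FPKM in 2DC_L. It was 5.12, 9.21 and 8.54 FPKM in 2DF, 4.57, 7.84 and 6.86 FPKM in 3DF, and 5.62, 3.61 and 6.57 FPKM in 3DF_50, so that dishes and matrices did not overlap. TPM1 (chr17:9208797-9235212, minus strand) was 97.5, 100 and 92.7 FPKM in 2DC, 86.3, 88.5 and 90.7 FPKM in 2DC_L, and 102, 104 and 87.9 FPKM in 3DF. It was highest in 2DF, at 127, 143 and 114 FPKM, and lowest in 3DF_50, at 64.6, 63.6 and 68.1 FPKM. TPM1 thus had its highest and lowest levels in conditions with fibrillar collagen, with the dishes between them. On the scale of FPKM, which is per length, TPM1 stood at 4.52 to 6.80 times TPM2 in the 6 dish libraries and at 10.4 to 24.7 times in the 9 matrix libraries. Counts per gene do not separate the splice forms of either gene.

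FLNC encodes filamin C, an actin crosslinker best known from muscle (chr7:15713362-15738017, minus strand). It was 8.73, 8.08 and 6.96 FPKM in 2DC and 11.5, 8.26 and 6.68 FPKM in 2DC_L. Unlike the genes above it was lowest on top of matrices, at 2.54, 3.3 and 3.55 FPKM, and stood at 3.53, 4.03 and 7.19 FPKM in 3DF and 5.21, 3.98 and 3.7 FPKM in 3DF_50. Replicate 3 of 3DF reached the range of the dishes.

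VIM, encoding the intermediate filament protein vimentin of mesenchymal cells (chr16:44091468-44099541, minus strand), and ACTB, encoding the beta-actin of the general cytoskeleton (scaffold Un0180, 124760 to 128215, minus strand), were by far the most abundant of the group. VIM was 854, 1200 and 1400 FPKM in 2DC, 1140, 1360 and 1640 FPKM in 2DC_L, and 766, 800 and 874 FPKM in 2DF. Inside matrices it was 577, 584 and 554 FPKM at the higher cell number and 324, 315 and 440 FPKM at the lower. The 3 groups of matrix libraries were ordered 3DF_50, 3DF, 2DF without overlap. ACTB was 1030, 1130 and 1160 FPKM in 2DC, 718, 739 and 798 FPKM in 2DC_L, 684, 1080 and 916 FPKM in 2DF, 597, 777 and 544 FPKM in 3DF, and 535, 553 and 511 FPKM in 3DF_50. The 2DC_L values of ACTB lay inside the range of 2DF, and their highest was below every 2DC library. ACTB stood at 841 times ACTA2 in the 2DC means and at 5339 times in the 3DF means, per length.

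**Figure D1:**
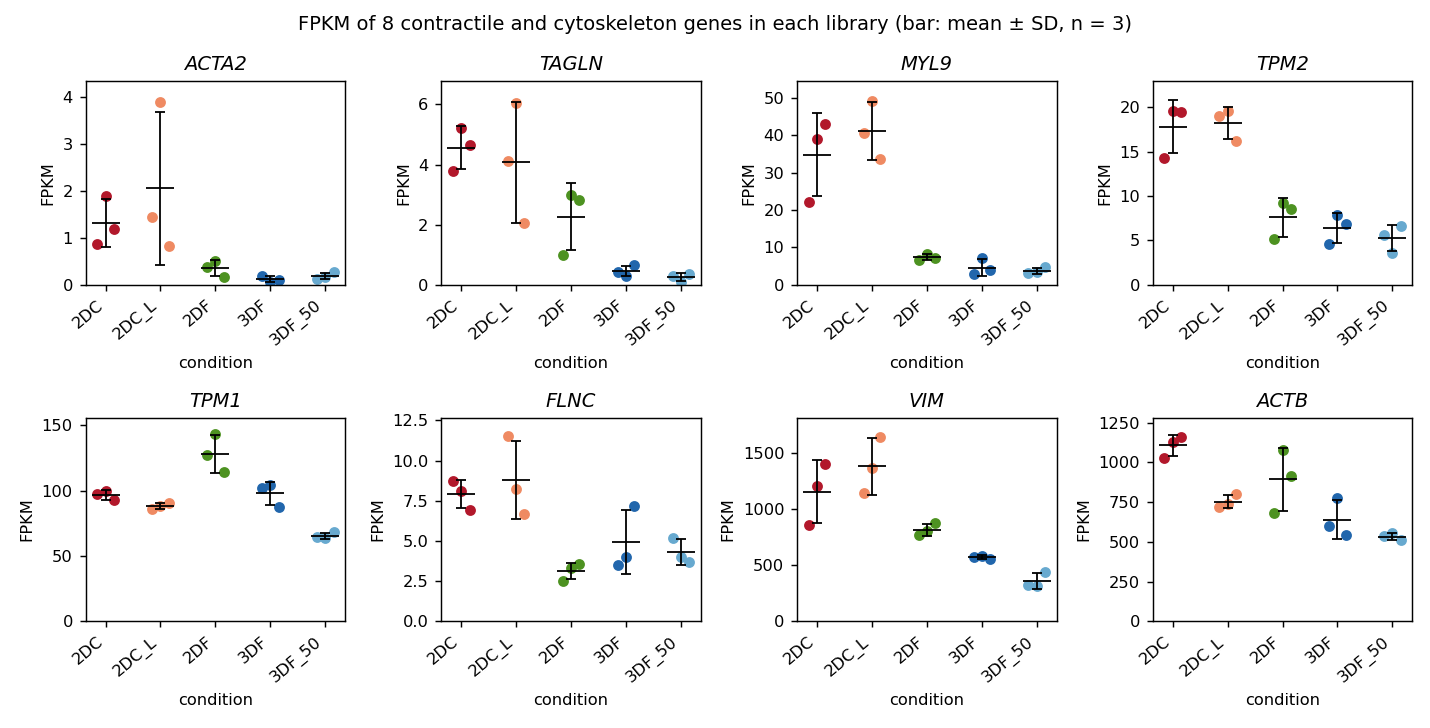
FPKM (y axis, linear, starting at 0) of the 8 genes in each of the 15 libraries (points) by condition (x axis), with the mean and SD of 3 libraries as black bars. For ACTA2, TAGLN, MYL9 and TPM2 the dish conditions 2DC and 2DC_L stand highest, TPM1 is highest in 2DF, and ACTA2 never exceeds 3.9 FPKM.

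The order of the condition means was the same for TPM2, MYL9 and VIM, rising from 3DF_50 through 3DF, 2DF and 2DC to 2DC_L. Inside this order the step from 2DF to 2DC was the one that passed the edgeR test for TPM2 (adjusted p = 0.00675) and MYL9 (adjusted p = 0.000727). For VIM no step between neighbours passed. The lowest mean was in 3DF or 3DF_50 for 7 of the 8 genes, with FLNC as the exception. The 8 genes together took 0.350% to 0.501% of the counted reads in 2DC, 0.250% to 0.303% in 3DF and 0.214% to 0.234% in 3DF_50. VIM and ACTB made up most of this share, at means of 0.207% and 0.177% of reads in 2DC. In bulk RNA, fewer cells of a type and less RNA per cell cannot be told apart.

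The comparison of 3DF vs. 2DC asks how cells surrounded by fibrillar collagen differ from cells on a coated dish. Of the 8 genes, 5 were DEGs, all lower in 3DF. A DEG here met edgeR's quasi-likelihood test at an adjusted p ≤ 0.05 together with a |log2FC| ≥ 1, log2FC being the log2 fold change. Among all genes tested, 4.32% were DEGs lower in 3DF. In FPKM, 6 of the 8 genes had every 3DF library below every 2DC library, against 18.7% of all genes tested. ACTA2 fell 10.5-fold, with a log2FC of -3.40 (SE 0.49, 95% interval -4.51 to -2.28, edgeR adjusted p = 0.00276). TAGLN fell 10.1-fold (log2FC -3.34, SE 0.32, edgeR adjusted p = 0.000453), and MYL9 fell 7.60-fold (log2FC -2.93, SE 0.37, edgeR adjusted p = 0.00151). ACTA2, TAGLN and MYL9, which are typical of myofibroblasts and smooth muscle, had the largest |log2FC| of the group. TPM2 fell 2.79-fold (log2FC -1.48, SE 0.22, edgeR adjusted p = 0.00355).

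The abundant cytoskeletal genes had smaller |log2FC| in the same comparison. VIM had a log2FC of -1.02 (SE 0.19, edgeR adjusted p = 0.00793), just past the limit for a DEG, and without 2DC replicate 3 it was -0.85 and without 2DC replicate 2 it was -0.99, both under the limit. ACTB had a log2FC of -0.80 (SE 0.16, edgeR adjusted p = 0.0123), past the p threshold but not the fold limit. FLNC did not pass the test (log2FC -0.70, 95% interval -1.28 to -0.12, edgeR adjusted p = 0.104), and without 3DF replicate 3, its highest matrix library, the value was -1.08 with an edgeR adjusted p of 0.00773. In DESeq2 FLNC passed the p threshold but not the fold limit (DESeq2 adjusted p = 0.0444). TPM1 had a log2FC of 0.0067, with a 95% interval from -0.26 to 0.27, well inside the fold limit on either side. The 4 DEGs other than VIM kept their call when any of the 6 libraries was left out.

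In 2DF vs. 2DC, which keeps cells on a surface and changes the surface from coated to fibrillar collagen, 4 of the 8 genes were DEGs lower in 2DF, against 2.93% of all genes tested. The paper names a difference in stiffness between these conditions as a possible confounder. MYL9 fell 4.70-fold (log2FC -2.23, SE 0.24, edgeR adjusted p = 0.000727). FLNC fell 2.52-fold (log2FC -1.33, SE 0.13, edgeR adjusted p = 0.000602) and TPM2 fell 2.32-fold (log2FC -1.21, SE 0.21, edgeR adjusted p = 0.00675), or by a log2FC of -0.99 without 2DF replicate 1, short of a call. ACTA2 had a log2FC of -1.85 (SE 0.48, edgeR adjusted p = 0.0337). That call was kept in 1 of the 6 fits without a library, where the edgeR adjusted p ran from 0.0356 to 0.154, the highest without 2DC replicate 2. With the prefix of the library names as a block and all 5 conditions in the fit, all 4 calls were lost. MYL9, FLNC and TPM2 then had log2FCs of -2.37, -1.30 and -1.18 and ACTA2 one of -1.20, with edgeR adjusted p from 0.162 to 0.874. Only replicate 1 of 2DF shares its prefix with another condition, through 3DF_50 replicate 2. In this block, here and below, 2DF thus rests on that library, and a lost call cannot show that a difference is absent. TAGLN, although lower in all 3 libraries of 2DF than in any of 2DC, did not pass (log2FC -0.998, 95% interval -1.83 to -0.17, edgeR adjusted p = 0.104). DESeq2 called it, close to both limits (log2FC -1.003, DESeq2 adjusted p = 0.0477). TPM1 moved the other way, with every 2DF library above every 2DC library and a log2FC of 0.41 (SE 0.10, edgeR adjusted p = 0.0305), below the fold limit. VIM (log2FC -0.50) and ACTB (log2FC -0.31) did not pass, with edgeR adjusted p of 0.0879 and 0.237. In DESeq2 VIM passed the p threshold but not the fold limit (DESeq2 adjusted p = 0.0151).

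In 3DF vs. 2DF, where both conditions hold fibrillar collagen and the cells are inside or on top, 1 of the 7 genes tested was a DEG, and 1.69% of all genes were DEGs lower in 3DF. TAGLN fell 4.98-fold (log2FC -2.32, SE 0.50, 95% interval -3.43 to -1.21, edgeR adjusted p = 0.0223). The call was kept in 2 of the 6 fits that left out a library, with edgeR adjusted p between 0.0123 and 0.0892. It was lost without 2DF replicate 2 or 3 and without 3DF replicate 1 or 2, where the log2FC stayed between -2.26 and -2.07. The prefix block also ended it (log2FC -3.11, SE 1.14, edgeR adjusted p = 0.473). ACTA2 had too few reads to enter the test. VIM had every 3DF library below every 2DF library and a log2FC of -0.50 (edgeR adjusted p = 0.0714). In DESeq2 it passed the p threshold but not the fold limit (log2FC -0.51, DESeq2 adjusted p = 0.00305). MYL9 (-0.67), ACTB (-0.48), TPM1 (-0.38) and TPM2 (-0.25) had negative log2FCs that did not pass, and FLNC had a positive one (0.65, 95% interval 0.08 to 1.22, edgeR adjusted p = 0.175). Of these, MYL9 passed without 3DF replicate 2, at -1.13 and an edgeR adjusted p of 0.0336. The 3 comparisons share libraries, and whether a gene's change differs between them was not tested.

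**Figure D2:**
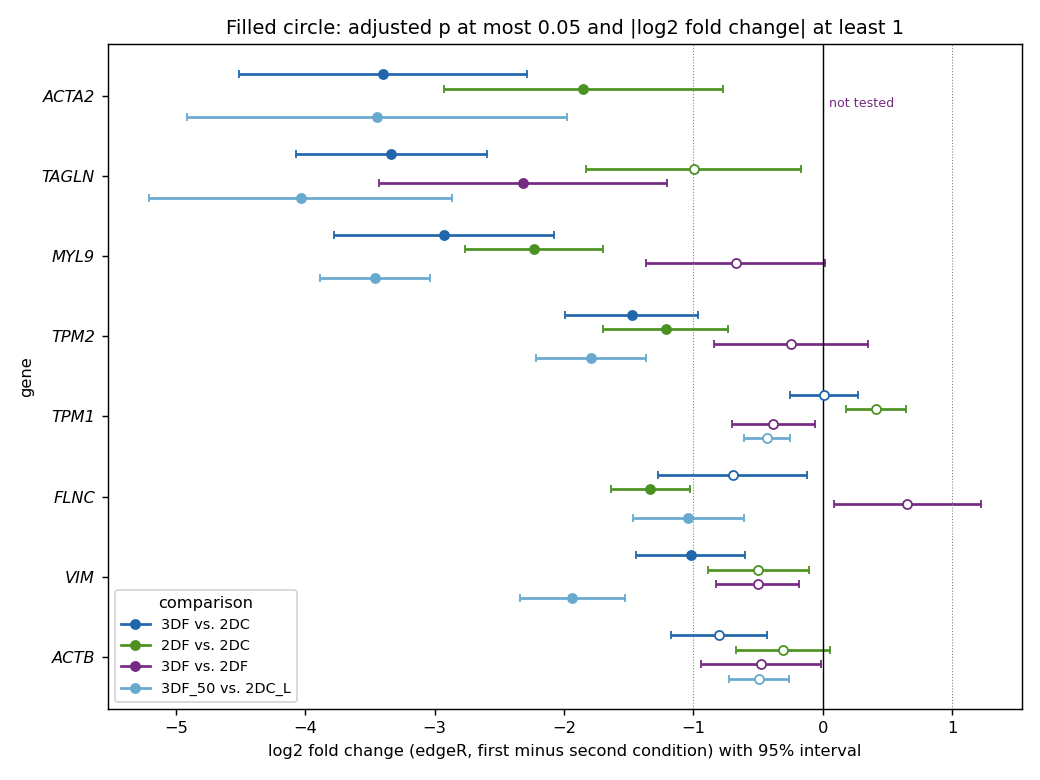
log2FC (x axis, first condition minus second) with its 95% interval from edgeR for the 8 genes (rows) in 4 comparisons (colours), with dotted lines at -1 and 1. Filled circles mark DEGs, and the intervals of ACTA2, TAGLN and MYL9 for 3DF vs. 2DC lie wholly below -2 while that of TPM1 spans 0.

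The number of cells in the matrix was compared in 3DF vs. 3DF_50. Of the 6 genes tested with edgeR 0 were DEGs, where 0.452% of all genes were DEGs, and DESeq2 called 0. In edgeR 2 had an unadjusted p under 0.05, a limit at which the share of all genes was not determined. Those 2 were VIM (log2FC 0.64, 95% interval 0.29 to 1.00, edgeR adjusted p = 0.0947) and TPM1 (0.56, 95% interval 0.28 to 0.83, edgeR adjusted p = 0.0772). Both were higher in every library of 3DF than in any of 3DF_50, and the share of all genes apart in this way was not determined. In DESeq2 both passed the p threshold (DESeq2 adjusted p = 0.00414 for VIM and 0.00221 for TPM1) and missed only the fold limit. The log2FCs of TPM2, MYL9, ACTB and FLNC were 0.26, 0.28, 0.24 and 0.17, with intervals that include 0. Those of MYL9 reach from -0.49 to 1.04, which does not exclude a change past the limit. ACTA2 and TAGLN had too few reads in both conditions to be tested.

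The lysis control compares digested with undigested cells on the same coated dishes. In 2DC vs. 2DC_L edgeR called 0 of the 8 genes, where 0.265% of all genes were DEGs, and DESeq2 called 0. In edgeR 1 gene had an unadjusted p under 0.05, and the share of all genes at that limit was not determined. The 1 gene was ACTB, higher in every digested library (log2FC 0.56, 95% interval 0.35 to 0.77, edgeR adjusted p = 0.0701). In DESeq2 ACTB passed the p threshold (log2FC 0.56, DESeq2 adjusted p = 5.58e-08) and missed only the fold limit. The other log2FCs lay between -0.68 for ACTA2 and 0.13 for TAGLN, with edgeR adjusted p of 0.911 to 0.987, and the interval for ACTA2 ran from -1.94 to 0.58. Against 2DC_L in place of 2DC, the log2FCs of 3DF were -4.06 for ACTA2, -3.19 for TAGLN, -3.16 for MYL9, -1.51 for TPM2 and -1.27 for VIM, all DEGs (edgeR adjusted p from 0.000155 to 0.00291). Among all genes, 5.98% were DEGs lower in 3DF than in 2DC_L. ACTB alone of the group lost a change past the p threshold, with a log2FC of -0.23 against 2DC_L (edgeR adjusted p = 0.325).

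For 2DF vs. 2DC_L the DEGs were again 4 of the 8, against 4.46% of all genes lower. They were ACTA2 (log2FC -2.52), MYL9 (-2.48), FLNC (-1.49) and TPM2 (-1.25), with edgeR adjusted p from 6.58e-06 to 0.0181. The ACTA2 call was lost without 2DC_L replicate 2 (log2FC -1.66, edgeR adjusted p = 0.0734) and without 2DF replicate 1 or 3. With the prefix block none of the 4 calls was kept, and the edgeR adjusted p ran from 0.0573 for FLNC to 0.646 for ACTA2. TPM1 was higher in 2DF here too, by 0.54 on the log2 scale (edgeR adjusted p = 0.00582), and VIM was lower by a log2FC of -0.75 (edgeR adjusted p = 0.00756). TAGLN did not pass, at -0.86 with an edgeR adjusted p of 0.203.

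The comparison of 3DF_50 vs. 2DC_L uses 6 libraries that do not enter 3DF vs. 2DC. All 8 genes were below 2DC_L in every 3DF_50 library, against 27.6% of all genes, and 6 were DEGs, against 8.47% of all genes that were DEGs in this direction. MYL9 had a log2FC of -3.46 (SE 0.19, edgeR adjusted p = 1.27e-06), TAGLN one of -4.03 (SE 0.52, edgeR adjusted p = 0.000222) and ACTA2 one of -3.44 (SE 0.66, edgeR adjusted p = 0.00224). VIM (log2FC -1.93) and TPM2 (-1.79) followed, and FLNC was close to the limit at -1.04, a call lost without 2DC_L replicate 1 (-0.80), without 3DF_50 replicate 2 or 3, with the prefix block (-0.81), with library size only (-0.68) and in both limma fits (-0.87 and -0.998). TPM1 (-0.43) and ACTB (-0.49) passed the p threshold only, with edgeR adjusted p of 0.00195 and 0.00395. The 2 conditions differ in digestion as well as in the matrix, which cannot be told apart here.

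Against 2DC, 3DF_50 had 6 DEGs of the 8, all lower, where 7.33% of all genes were DEGs lower in 3DF_50. TAGLN had a log2FC of -4.17, MYL9 -3.21, ACTA2 -2.77, TPM2 -1.75, VIM -1.68 and ACTB -1.05, with edgeR adjusted p from 4.63e-05 to 0.00182. FLNC (-0.88) and TPM1 (-0.56) passed the p threshold only. In 3DF_50 vs. 2DF, where 3.01% of all genes were DEGs lower in 3DF_50, 2 of the 7 genes tested were DEGs. They were TAGLN (log2FC -3.15, edgeR adjusted p = 0.00407) and VIM (log2FC -1.16, edgeR adjusted p = 0.000555). With the prefix block TAGLN lost its call (log2FC -3.35, SE 0.91, edgeR adjusted p = 0.124) and TPM1 gained one (log2FC -1.01, edgeR adjusted p = 0.0231). MYL9 (-0.96), TPM1 (-0.95) and ACTB (-0.73) were lower past the p threshold only, and FLNC was above 2DF in every library without passing (log2FC 0.47, edgeR adjusted p = 0.0750).

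Library names carry prefixes that conditions share in part, and the labels do not say what they mark. Within libraries of the same prefix, 5 pairs set cells inside a matrix beside cells on a coated dish. In all 5 pairs ACTA2, TAGLN, MYL9, TPM2, FLNC, VIM and ACTB were lower inside the matrix. The share of all genes that were lower in all 5 pairs was not determined. The differences in log2(CPM + 1), where CPM is a library's counts scaled to a common total, ran from -3.64 to -2.12 for MYL9, from -2.61 to -1.26 for TAGLN, from -1.94 to -0.98 for TPM2 and from -2.06 to -1.27 for VIM. Those of ACTB ran from -1.06 to -0.026, the smallest being 3DF vs. 2DC_L. TPM1 was lower in 3 of the 5 pairs. No prefix joins 2DF to a dish condition or to 3DF, so that these comparisons have no value within a prefix. Some pairs share a library, so that the 5 pairs are not independent.

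**Figure D3:**
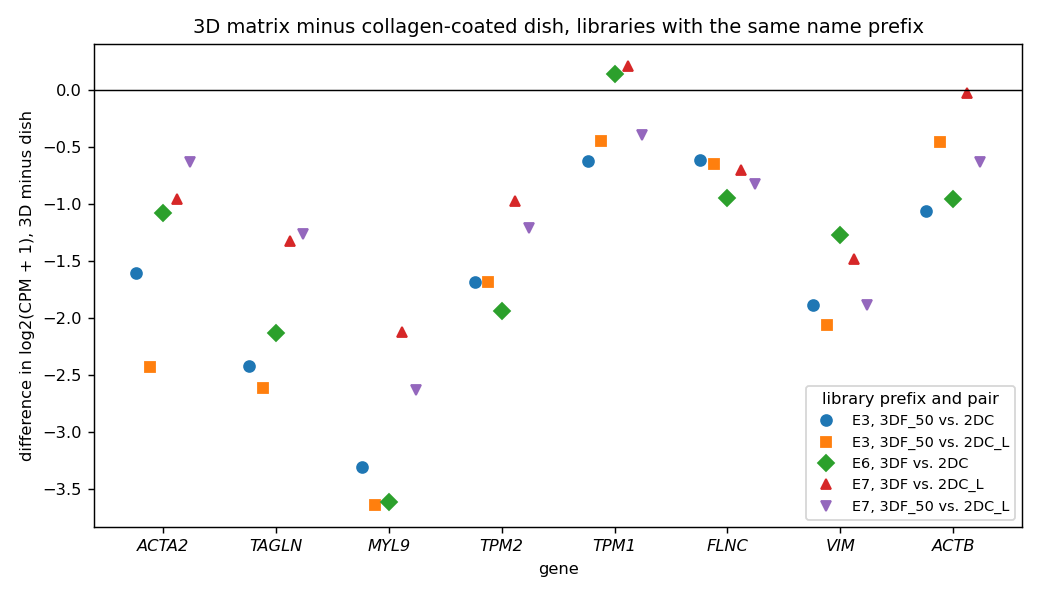
Difference in log2(CPM + 1) (y axis), matrix library minus dish library, for the 8 genes (x axis) in the 5 pairs of libraries that share a name prefix (symbols). Every point is below 0 except 2 of TPM1, and within each pair that of MYL9 is the lowest, at -2.12 or below.

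The wider contractile network was described by a list of 30 genes, of which 25 are in the tables and 21 had enough reads to be tested. In 3DF vs. 2DC 2 of the 21 were DEGs higher and 2 lower, where 3.24% of all genes tested were DEGs higher and 4.32% lower, and the median log2FC was -0.52, beside 0.01 for all genes. The lower count was 6 with the prefix block and 1 with library size only or without 3DF replicate 1. Among the lower ones was PDLIM7, a PDZ and LIM domain protein of actin bundles (30.9 ± 2.52 FPKM in 2DC and 14.6 ± 2.63 FPKM in 3DF, log2FC -1.09, edgeR adjusted p = 0.00272), at -0.95 without 3DF replicate 1 and thus short of a call. The higher ones were FHL1, a LIM-only protein abundant in muscle, and MYLK, the kinase that phosphorylates the myosin regulatory light chain. FHL1 was 2.08, 1.43 and 1.28 FPKM in 2DC and 13.6, 16.7 and 9.45 FPKM in 3DF, a rise of 3.04 on the log2 scale (SE 0.26, edgeR adjusted p = 0.000287). MYLK stood at 0.359 ± 0.122 FPKM in 2DC and 0.857 ± 0.181 FPKM in 3DF (log2FC 1.24, edgeR adjusted p = 0.0316). The MYLK call was lost in 5 of the 6 fits without a library, with edgeR adjusted p of 0.0531 to 0.112, and with the replicate block (0.0506) and the prefix block (0.154). In limma on log2(FPKM + 1) the MYLK difference was 0.45, below the fold limit.

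In 2DF vs. 2DC the network list held 1 DEG higher, FHL1 (log2FC 2.43), and 2 lower, among them SMTN, which encodes smoothelin (-1.02, edgeR adjusted p = 0.00493), with a median of -0.21. Among all genes 2.04% were DEGs higher and 2.93% lower. SMTN was short of the fold limit without 2DC replicate 2 (-0.98), 2DC replicate 3 (-0.95) or 2DF replicate 1 (-0.87) and with library size only (-0.92), and with the prefix block neither list count was above 0. In 3DF vs. 2DF only TAGLN2, a relative of transgelin found in many cell types, was a DEG, higher in 3DF (44.7 ± 12.3 FPKM in 2DF, 102 ± 28.9 FPKM in 3DF, log2FC 1.20, edgeR adjusted p = 0.0165), where 2.09% of all genes were DEGs higher. This call was lost without 2DF replicate 1 (edgeR adjusted p = 0.0918), 2DF replicate 2 (0.0835) or 3DF replicate 2 (log2FC 0.98) and with the prefix block (edgeR adjusted p = 0.459). The median over the list was -0.30.

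The list of actin regulators and of the SRF, MRTF and YAP arm, through which actin tension is known to feed back on transcription, had 27 genes, all in the tables. In 3DF vs. 2DC 0 of 26 were DEGs higher and 5 lower, and in 3DF vs. 2DF again 0 were higher and 5 lower, with list medians of -0.08 and -0.03, where 4.32% and 1.69% of all genes were DEGs lower. With the prefix block 0 were lower in 3DF vs. 2DF, the edgeR adjusted p of the 5 genes then being 0.145 to 0.459. The 5 genes were CTGF, CYR61, TEAD4, RHOB and RND3 both times. CTGF, a secreted matricellular protein and a common readout of YAP activity, was 104, 170 and 281 FPKM in 2DC and 91, 124 and 180 FPKM in 2DF, but 7.94, 12.9 and 7.1 FPKM in 3DF. In 3DF vs. 2DC its log2FC was -4.32 (SE 0.40, edgeR adjusted p = 0.000389), and in 3DF vs. 2DF it was -3.82 (SE 0.30, edgeR adjusted p = 0.000407). TEAD4, a DNA-binding partner of YAP, was 7.11 ± 0.379 FPKM in 2DC, 6.41 ± 0.835 FPKM in 2DF and 2.06 ± 0.346 FPKM in 3DF, with log2FCs of -1.79 and -1.63. RND3, an atypical small GTPase that opposes ROCK1, had log2FCs of -1.54 and -1.51. CTGF, TEAD4 and RND3 showed no DEG between 2DF and 2DC, where the only DEG of the list was DIAPH3, an actin-nucleating formin, lower in 2DF (log2FC -3.05, SE 0.66, edgeR adjusted p = 0.0164). It was no longer called without 2DF replicate 1 (0.0781) or 2DF replicate 2 (0.0599), with the prefix block (0.188) or in the 2 limma fits (0.0938 and 0.0508), the values being adjusted p.

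CYR61, another matricellular YAP target, and the small GTPase gene RHOB differed from CTGF when 3DF was compared with 2DC_L in place of 2DC. CYR61 was 979 ± 42 FPKM in 2DC and 102 ± 12.4 FPKM in 2DC_L, higher in the digested dishes by 3.26 on the log2 scale (SE 0.12, edgeR adjusted p = 5.38e-06). Its 3DF level of 195 ± 126 FPKM was below 2DC (log2FC -2.33, edgeR adjusted p = 0.00668) but not below 2DC_L (0.94, edgeR adjusted p = 0.104). RHOB was 137 ± 3.28 FPKM in 2DC, 60.6 ± 25.1 FPKM in 2DC_L and 43.7 ± 17.0 FPKM in 3DF, with a log2FC of -1.65 against 2DC and of -0.47 against 2DC_L (edgeR adjusted p = 0.00339 and 0.315). In 2DC vs. 2DC_L itself 2 genes of the list passed the p threshold, CYR61 and SRF, and RHOB did not. Among all genes 0.265% were DEGs there. SRF, the serum response factor that drives many contractile genes, was like CYR61 higher in 2DC than in 2DC_L (26.9 ± 2.61 FPKM and 6.80 ± 0.168 FPKM, log2FC 1.98, edgeR adjusted p = 1.31e-05). SRF was not a DEG in any comparison between digested conditions. CTGF, in contrast, had a log2FC of -3.91 for 3DF vs. 2DC_L (edgeR adjusted p = 1.39e-05).

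The list of intermediate filament genes and linkers held 10 genes, 7 of them tested in 3DF vs. 2DC. Of the 7, 2 were DEGs lower and 0 higher, where 4.32% of all genes were DEGs lower. In 2DF vs. 2DC 1 of 6 was a DEG lower, where 2.93% of all genes were. NES, which encodes nestin, was lower in 3DF (5.58 ± 1.41 FPKM beside 11.3 ± 1.07 FPKM in 2DC, log2FC -1.03, edgeR adjusted p = 0.00753) and in 2DF (log2FC -1.13, edgeR adjusted p = 0.00256). The first call was lost in 4 of the 6 fits without a library, at log2FCs of -0.9998 to -0.87, and with library size only (-0.85). The second was lost without 2DF replicate 1 (-0.97) and with the prefix block (edgeR adjusted p = 0.359). LMNB1, the nuclear lamin B1, was lower in 3DF (log2FC -1.16, edgeR adjusted p = 0.000558), though -0.99 with library size only. In 3DF vs. 2DF, where 6 genes of the list were tested, no call was made, beside 1.69% of all genes called lower and 2.09% higher. The list medians were 0.30, -0.32 and -0.02 in the 3 comparisons, the first with a sign opposite to that of its 2 DEGs.

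**Figure D4:**
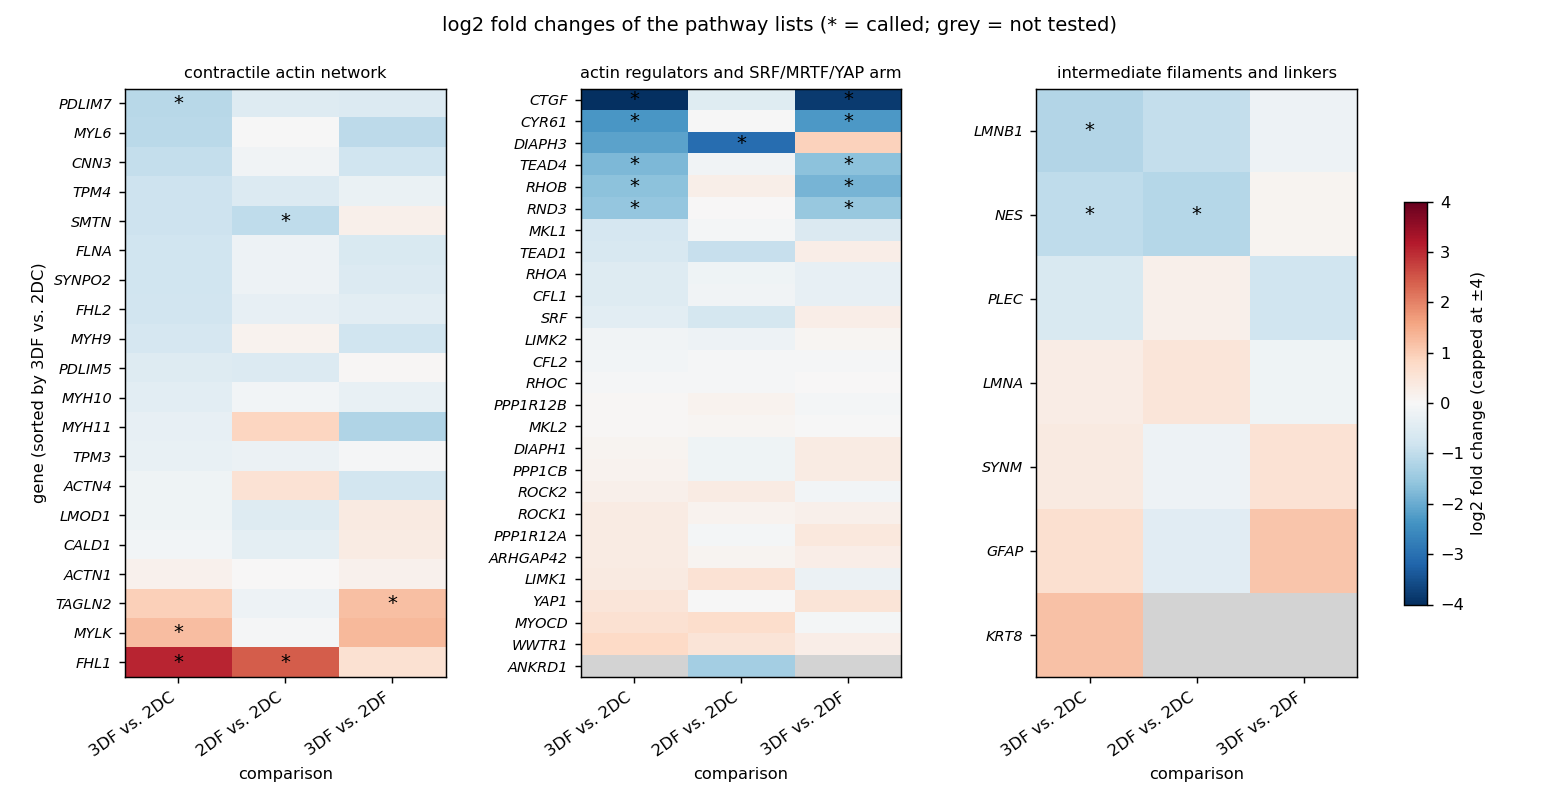
Heatmap of log2FCs (colour, capped at -4 and 4) of tested genes of the contractile network, regulator and intermediate filament lists (rows) in columns for 3DF vs. 2DC, then 2DF vs. 2DC, then 3DF vs. 2DF, with DEGs starred and untested genes in grey. The 5 starred regulators in the first column are starred again in the third and not in the second.

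Markers of the labelled and of other cell types were summed in FPKM. All 6 keratocyte markers (KERA, LUM, DCN, OGN, ALDH1A1 and TKT) were present, and their sum was 24963 to 31226 in 2DC, 24518 to 30882 in 2DC_L, 22942 to 27310 in 2DF, 28368 to 43020 in 3DF and 20042 to 23536 in 3DF_50. The 8 smooth muscle or pericyte markers, none at 0 in all libraries of a condition, summed to 10.4 to 13.2 in 2DC, 12.9 to 15.3 in 2DC_L, 4.49 to 8.37 in 2DF, 6.99 to 9.82 in 3DF and 5.90 to 8.33 in 3DF_50. This sum was thus higher in the dishes, as were ACTA2, TAGLN, MYL9 and TPM2, which smooth muscle cells also express. CSPG4 made up most of the sum in 2DC, at 6.66, 8.65 and 7.03 FPKM, and was 2.8, 5.51 and 5.18 FPKM in 3DF. In 3DF vs. 2DC 0 of the 6 markers tested were DEGs (median log2FC -0.18), where 4.32% of all genes were DEGs lower. In 3DF_50 vs. 2DC 1 of the 6 was higher and 1 lower, where 7.33% of all genes were DEGs lower. Of the 8, CSPG4 was a DEG lower in 2DF than in 2DC (log2FC -1.22, edgeR adjusted p = 0.00437, lost with the prefix block at 0.158), MYH11 was at 0.355 ± 0.0800 FPKM in 2DC, and the part of these markers in the results was not tested.

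Of the 8 markers of corneal epithelium, 7 are in the tables. They summed to 0.0699 to 0.957 FPKM in 2DC, 0.116 to 0.698 in 2DC_L, 0.731 to 5.81 in 2DF, 7.65 to 13.1 in 3DF and 0.0606 to 6.23 in 3DF_50. KRT12 was at 0 in every dish library and at 2.47, 4.4 and 3.72 FPKM in 3DF. In 3DF_50 the sum was 0.0606, 0.138 and 6.23 FPKM, so that replicates 1 and 2 were within the range of the dishes or just below it, and replicate 3 was between the highest 2DF library and the lowest 3DF library. In 3DF vs. 2DC all 5 of the markers tested were DEGs higher in 3DF (median log2FC 4.26), where 3.24% of all genes were DEGs higher. Only 1 of these markers had enough reads to be tested in 2DC vs. 2DC_L. Most thus passed the filter through their reads in 3DF, so that the direction of this count was largely fixed beforehand. In replicates 1 and 2 of 3DF_50 ACTA2 was 0.128 and 0.163 FPKM, and TAGLN was 0.294 and 0.0933 FPKM. MYL9 was 3.17 and 3.29 FPKM there, and TPM2 was 5.62 and 3.61 FPKM. These 2 libraries differ from 3DF in the number of cells per matrix as well. Whether epithelial cells bear on the levels of these genes was not tested. The 5 immune markers summed to 2.52 to 5.18 FPKM in 2DC, 2.18 to 3.79 in 2DC_L, 3.45 to 8.15 in 2DF, 2.56 to 3.05 in 3DF and 3.31 to 4.28 in 3DF_50. Of them CD68, a macrophage marker, was 6.24, 7.3 and 2.81 FPKM in 2DF and 1.74, 2.38 and 2.24 FPKM in 3DF, a DEG lower in 3DF as TAGLN was (log2FC -1.36, edgeR adjusted p = 0.0452), and its call was lost in 5 of the 6 fits without a library. The 4 Schwann cell markers summed to 2.31 to 3.86 FPKM in 2DC, 2.91 to 3.53 in 2DC_L, 1.70 to 2.23 in 2DF, 2.88 to 3.94 in 3DF and 2.44 to 2.66 in 3DF_50. The part of the immune and Schwann cell markers in the results was likewise not tested.

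Over the 15 libraries the members of the group were not equally alike. On log2(CPM + 1), MYL9 and TPM2 had a Pearson r of 0.97, the highest of the 28 pairs, while TPM1 and FLNC had one of -0.28, the lowest. The genes outside the group most like each member were SDF2L1 for ACTA2 (r = 0.90), TGFB1I1 for TAGLN (0.97), ANXA2 for MYL9 (0.98), SRGAP2 for TPM2 (0.98), TRAF3 for TPM1 (0.93), MCC for FLNC (0.95), PMP22 for VIM (0.98) and ARHGEF3 for ACTB (0.89). The next in order were SLC10A3 and C20H14orf1 for ACTA2, FAM65B and TGFBI for TAGLN, ACAT2 and EBP for MYL9, and LGALS3BP and HYAL1 for TPM2. They were NUAK1 and PRSS23 for TPM1, SCLY and ISLR for FLNC, LCP1 and FBN1 for VIM, and AMOTL2 and GATSL2 for ACTB. These are descriptions over 15 points that share 5 conditions and sequencing depth, chosen as the highest among 9688 or more genes with a mean of at least 1 FPKM.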

How the data were processed

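Bulk RNA-seq of 15 libraries was used. Reads were aligned by the authors to oryCun2 with HISAT2 and counted with featureCounts, and the counts they deposited are unnormalized. Their deposited FPKM are those counts scaled by gene length and library size. The deposited gene length set the per-length scale, and coordinates are those of the tables. Reads of near-identical copies and of overlapping genes may have been split or lost in this counting, and the strand setting is not given in the sources used here. Conditions came from the library labels, and the paper describes replicates as separate experiments.

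All 10 pairs of conditions were tested on the counts of all genes with edgeR 4.0.16 in R 4.3.3, each fit holding the 6 libraries of its pair. Normalization was TMM, the filter was filterByExpr with a minimum count of 10, and the test was the two-sided quasi-likelihood F test with Benjamini–Hochberg adjustment over all genes tested. The SE is the log2 fold change divided by the square root of F, and intervals are 95%. Levels are mean FPKM ± SD. The test was checked on simulated counts. The members, gene lists and alternatives were chosen with earlier results of these data known, and the gene lists are hand-written. Genes named are the 8 members, list genes that were DEGs in any comparison among 2DC, 2DF and 3DF, and the 3 genes with the highest Pearson r to each member in log2(CPM + 1), among genes with a symbol and a mean of at least 1 FPKM; SRF, MYH11 and the markers were named in addition after their values were seen. MYL6, TPM3 and PLEC were matched to unnamed rows through RefSeq gene identifiers of mOryCun1.1.

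Alternatives were DESeq2 1.42.0 (also the study's tool), its size factors in edgeR, library size only, no filter, a mean of at least 1 CPM, all 5 conditions in 1 fit, the replicate number as a block, the library prefix in the same role with all 5 conditions, limma 3.58.1 on FPKM of genes averaging 0.1 or more, in log2 after adding 1 or 0.1, adjusted p only, and leaving out each library. Sequences and promoters are not analysed here. Some genes of the lists were tested and counted but are not reported here by name.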

Additional observations from a re-analysis of the deposited data

How the results depend on the processing

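Of 1214 values of the 8 genes under the alternatives, 1146 kept their direction and side of the threshold, 42 lost a call, 10 gained one and 16 changed sign. Of 415 values of list and marker genes that were DEGs among 2DC, 2DF and 3DF, 53 lost the call and 0 changed sign. DESeq2 called 5 genes in 2DF vs. 2DC, beside 4 with edgeR, TAGLN being added, and as many as edgeR in each of the other 9 comparisons. With the library prefix as a block and all 5 conditions in the fit, 0 members were called in 2DF vs. 2DC, 3DF vs. 2DF and 2DF vs. 2DC_L (4, 1 and 4 without it). In that block 2DF rests on its replicate 1, the only 2DF library that shares a prefix with another condition. limma on log2(FPKM + 1) called 0 in 3DF vs. 2DF. In 3DF_50 vs. 2DF, library size only called 1 and adjusted p only called 5, beside 2. Leaving out each library gave 4 to 6 called members in 3DF vs. 2DC, 2 to 4 in 2DF vs. 2DC (2 without 2DF replicate 1), 0 to 1 in 3DF vs. 2DF, 6 to 7 in 3DF_50 vs. 2DC, 2 to 3 in 3DF_50 vs. 2DF, 5 to 6 in 3DF vs. 2DC_L, 3 to 4 in 2DF vs. 2DC_L, 5 to 6 in 3DF_50 vs. 2DC_L, and 0 in 3DF vs. 3DF_50 and 2DC vs. 2DC_L. Scaling by library size only moved the median log2FC over all genes to 0.19 in 3DF vs. 2DC and 0.37 in 3DF_50 vs. 2DC, with VIM at -0.85 and ACTB at -0.70, both short of a call. It also ended the calls of VIM in 3DF_50 vs. 2DF (-0.93) and FLNC in 3DF_50 vs. 2DC_L (-0.68). The cause of each change was not tested.

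Signs turned for TPM1 in 3DF vs. 2DC with no filter (-0.0014) and without 2DC replicate 3, 3DF replicate 1 or 3DF replicate 2, the range over the 6 fits being -0.0463 to 0.0772. In 3DF vs. 3DF_50 the range was -0.17 to 0.5485 for MYL9, negative without 3DF replicate 2, and -0.208 to 0.3613 for FLNC, negative without 3DF replicate 3. In 2DC vs. 2DC_L it was -1.0327 to 0.1834 for ACTA2, positive without 2DC_L replicate 2, and -0.1692 to 0.5345 for TAGLN, negative without 2DC_L replicate 3. There it was also -0.1245 to 0.0894 for TPM2, positive without 2DC replicate 1 or 2DC_L replicate 2, and -0.318 to 0.0854 for FLNC, positive without 2DC_L replicate 1. With the prefix block signs turned for ACTB in 3DF vs. 2DF (0.1023) and 2DF vs. 2DC_L (-0.2407), FLNC in 3DF vs. 3DF_50 (-0.0647) and TAGLN and TPM2 in 2DC vs. 2DC_L (-0.0318 and 0.0384). None of these was past the threshold at the start.

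The replicate number was not taken as a pairing, since in no comparison did every same-numbered pair have a correlation of deviations over 0.1. The correlations were all positive in 2DC vs. 2DC_L (0.064 to 0.32) and 3DF_50 vs. 2DC_L (0.075 to 0.26), and each other comparison had a negative one. A pairing of some libraries is thus not excluded. With the replicate number as a block, 4 members were called in 3DF vs. 2DC (VIM at -0.99) and 5 in 2DF vs. 2DC (TAGLN at -1.09, adjusted p = 0.0491 in edgeR), and the counts of the other comparisons were the same. With 3 libraries per condition and under 10 reads of ACTA2 in each matrix library but 1, depth limits what can be said of ACTA2 between 2DF, 3DF and 3DF_50, where without the filter the log2FC of 3DF vs. 2DF was -1.52 (95% interval -3.17 to 0.13, edgeR adjusted p = 0.327).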

Other observations

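Rows without a symbol that the RefSeq table names as relatives of these genes were looked at after the members' values were seen. LOC100009332, named there as transgelin-like, had 35, 14 and 34 reads in 2DC, 4, 9 and 8 in 2DF, 4, 3 and 4 in 3DF and 0, 0 and 1 in 3DF_50. It was lower in 3DF than in 2DC (log2 fold change -2.76, SE 0.47, edgeR adjusted p = 0.00634), in the direction of TAGLN. The actin-like LOC100341037 stood at 260 ± 20.3 FPKM in 2DC, 243 ± 4.62 FPKM in 2DC_L and 170 ± 31.2 FPKM in 3DF, and LOC100008822 at 43.5 ± 10.6, 29.9 ± 2.36 and 24.2 ± 5.02 FPKM (SD, n = 3). Their log2 fold changes for 3DF vs. 2DC were -0.62 and -0.85, with edgeR adjusted p of 0.0287 and 0.0263. Whether these rows share reads with ACTB or TAGLN was not tested.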
